A study of Mus musculus with 12 samples.

Results

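The collagen genes of the mouse heart were examined, chosen as the rows of the count table whose symbol is Col, a number, a and a number (such as Col1a1). There were 44 of them among 24062 gene symbols, 11 encoding chains of fibrillar collagens, 6 chains of the basement membrane collagen type IV and 27 chains of other types. RNA from whole hearts of 12 mice was sequenced, with 3 mice in each of 4 groups. WT and KI/KI mice were 2 months old, and KI/KI mice were homozygous for the Lemd2 c.T38>G knock-in allele, which they carry in every cell. Floxed and cKO mice were taken at postnatal day 1 (P1), and both carried Lemd2 alleles with loxP sites. The cKO mice also had the Myh6-Cre transgene, whose α-myosin heavy chain promoter is active in cardiomyocytes, so that fibroblasts, endothelial cells and other non-myocytes of these hearts kept the gene. Lemd2, which encodes a protein of the inner nuclear membrane, had 31.9, 34.8 and 33.0 CPM (read counts scaled to library size, with TMM factors over the 12 libraries) in WT hearts against 25.6, 25.1 and 24.8 CPM in KI/KI hearts. It had 24.4, 25.1 and 25.3 CPM in floxed hearts against 6.63, 13.1 and 11.3 CPM in cKO hearts.

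Collagens are trimers wound from 3 α chains, each chain the product of its own gene. Fibrillar collagens (types I, II, III, V, XI, XXIV and XXVII) assemble into the fibrils that carry tensile load, and types I and III, made mainly by fibroblasts, are the chief ones of the heart. Type IV collagen instead forms the sheet-like network of basement membranes, which surround cardiomyocytes, capillaries and mural cells. The other types include FACITs, which sit on fibril surfaces, the beaded filaments of type VI, the short-chain network of type VIII, multiplexins of basement membrane zones, and chains with a transmembrane segment.

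Library totals lay between 37063669 and 44789753 counts, and 3 counts, taken as the floor of detection, corresponded to between 0.060 and 0.096 CPM; this floor covers counting error only. Several libraries stood apart. KI/KI replicate 5 had a higher collagen level than any other adult heart. The collagen genes took 0.36, 0.311 and 0.39% of counts in the WT hearts, 0.357, 0.844 and 0.485% in KI/KI replicates 4, 5 and 6, 1.21, 1.32 and 1.2% in the floxed hearts and 1.49, 1.68 and 1.74% in the cKO hearts. Among the P1 hearts, cKO replicate 4 had 0.0804 CPM over the 4 Y-linked genes listed, against at least 221.6 CPM in each of the other 11 hearts. The 8 lung epithelial markers summed to 0.995, 0.885 and 102 CPM in WT hearts, 35.8, 1.47 and 1.15 CPM in the KI/KI hearts, 31.1, 49.4 and 2.76 CPM in the floxed hearts and 23.3, 3.84 and 5.49 CPM in the cKO hearts. Cardiomyocyte markers (8 genes, among them Myh6, Tnnt2 and Ttn) summed to between 40871 and 96121 CPM and none was at 0 in all hearts of an age.

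The highest collagen level per length of transcript belonged to Col3a1, the single chain of type III collagen, at a mean over the 12 hearts of 314 CPM per kb of exon. The 2 chains of the common type IV trimer followed, Col4a1 at 265 and Col4a2 at 182 CPM per kb. Next came both chains of type I collagen, Col1a2 at 173 and Col1a1 at 133 CPM per kb. Among the other types, the type VI chains Col6a2 (72.9 CPM per kb) and Col6a1 (66.2) and the multiplexin Col15a1 (47) were highest, and Col4a5 was the next type IV gene (27.4 CPM per kb). At the other end, Col6a4 had at most 19 counts in any heart and passed the filter on low counts (at least 10 counts in 3 libraries) in none of the comparisons. Col2a1, Col9a1, Col10a1, Col19a1 and Col24a1 did not pass it in the adult hearts, where 38 of the 44 genes were tested, against 43 in the P1 hearts.

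**Figure D1:**
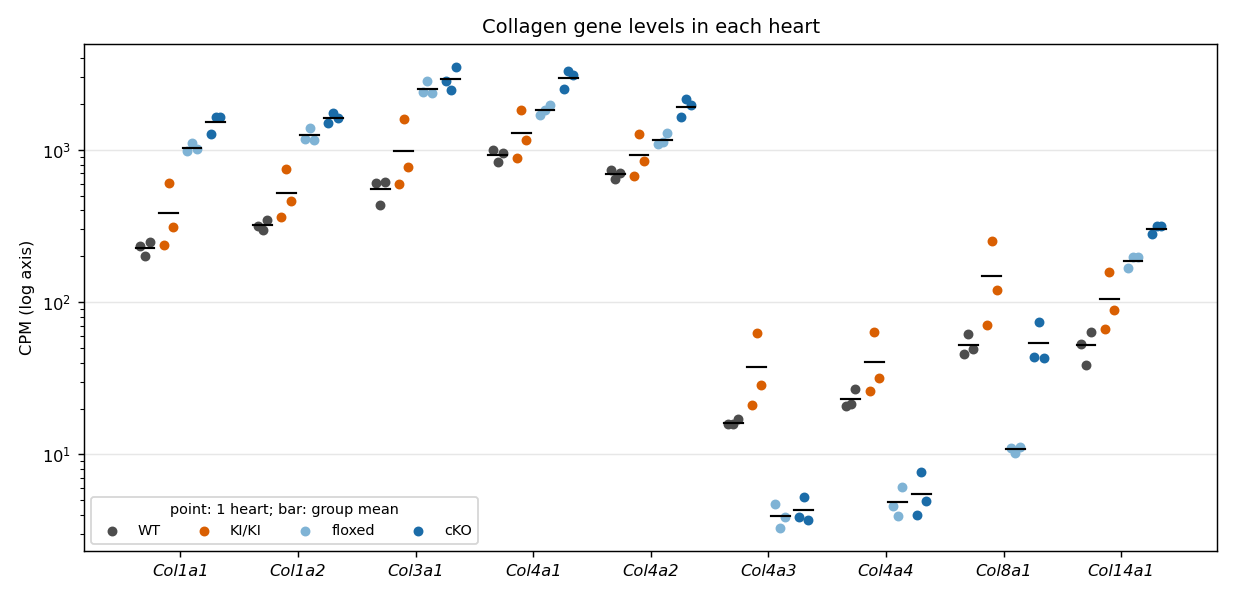
CPM on a log axis for 9 collagen genes in each of the 12 hearts, 1 point per heart and a bar at the mean of 3 hearts. Fibrillar and common type IV genes sit higher in the P1 hearts (blue) than in the WT hearts (grey), while Col4a3, Col4a4 and Col8a1 sit lower in the floxed hearts than in the WT hearts, and the uppermost KI/KI point of each gene is replicate 5.

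Many collagen genes lie beside one another. Within 50 kb of each other on GRCm38 (mm10) were Col3a1 and Col5a2 on chromosome 1 (24614 bases apart), Col9a1 and Col19a1 on chromosome 1 (9205), Col6a6, Col6a5 and Col6a4 on chromosome 9 (27917 and 28810) and 3 pairs of type IV genes, each pair transcribed in opposite directions from a shared interval. Col4a1 (chr8:11198423-11312826, minus strand) and Col4a2 (chr8:11312805-11449287, plus strand) overlap by 22 bases at their starts, Col4a4 (chr1:82448423-82586849, minus strand) and Col4a3 (chr1:82586921-82722059, plus strand) are separated by 71 bases, and Col4a6 and Col4a5 on chromosome X by 1308 bases. Whether reads were counted by strand is not given in the sources used here, so counts from the 22 shared bases cannot be assigned to 1 gene of the first pair. The 71 bases between Col4a4 and Col4a3 are shown because both genes start there and had log2 fold changes of the same sign in each comparison; they hold none of the 3 motifs searched below. They lie at chr1:82586850-82586920 and are given on the plus strand, with no capitals.
Col4a4 to Col4a3 interval: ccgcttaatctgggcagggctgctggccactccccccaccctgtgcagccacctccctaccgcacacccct

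Promoters of 3 genes that the comparisons turn on are shown as the 120 bases before the annotated start (RefSeq, GRCm38.p6), with motif matches in capitals: Col3a1 for the highest level, Col5a1 as a fibrillar gene that changed in the cKO and age comparisons, and Col8a1 for the largest rise in cKO hearts. Their positions are chr1:45311418-45311537 (plus strand), chr2:27886305-27886424 (plus strand) and chr16:57754738-57754857 (minus strand).
Col3a1: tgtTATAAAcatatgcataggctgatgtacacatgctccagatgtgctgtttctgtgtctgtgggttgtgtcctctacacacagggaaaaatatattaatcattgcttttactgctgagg
Col5a1: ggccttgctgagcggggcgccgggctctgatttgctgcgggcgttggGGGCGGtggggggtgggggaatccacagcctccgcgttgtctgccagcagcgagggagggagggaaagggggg
Col8a1: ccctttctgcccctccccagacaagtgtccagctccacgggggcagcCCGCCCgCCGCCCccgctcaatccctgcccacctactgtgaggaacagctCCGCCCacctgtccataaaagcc
The motifs, searched on both strands, were the TATA box (TATAAA or TTTATA), the CCAAT box (CCAAT or ATTGG) and the GC box (GGGCGG or CCGCCC). A GC box stood in 18 of the 35 collagen genes with an entry (51.4%) and in 26.5% of all 32851 promoters, a TATA box in 3 of 35 (8.57%) and in 6.34%, and a CCAAT box in 5 of 35 (14.3%) and in 21.3%. Col8a1 held 3 GC boxes, Col5a1 held 1, and Col3a1 held the letters TATAAA near the end of the window farthest from its start. For the collagen genes 1 promoter per gene was used, while the 32851 promoters were not reduced to 1 per gene, so the paired percentages differ in unit. Matches were counted anywhere in the window, so a match of letters need not be a working box.

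To examine the collagen genes after loss of Lemd2 from cardiomyocytes, cKO and floxed P1 hearts were compared. Of the 43 collagen genes tested, 9 were higher in cKO hearts at an adjusted p under 0.05 (edgeR's quasi-likelihood test with Benjamini-Hochberg adjustment over all genes tested) and 1 was lower, where 9.15% of all 15392 genes were called higher and 7.23% lower. The short-chain gene Col8a1 rose by far the most, and it was the only one of them past 2-fold (2.78% of all genes were called higher past 2-fold). The other 8 were Col1a1 and Col5a1 of the fibrillar class, Col4a1 and Col4a2 of type IV, and Col6a3, Col14a1, Col16a1 and Col26a1. The lower gene was Col25a1. In bulk tissue, more cells of a type and more RNA per cell cannot be told apart.

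Type VIII collagen forms hexagonal networks in vessel walls and in the membrane under the corneal endothelium. Its gene Col8a1 was at 11.1, 10.3 and 11.2 CPM in the floxed hearts and at 43.8, 74.4 and 42.9 CPM in the cKO hearts. The lowest cKO heart was thus far above the highest floxed heart, and the log2 fold change was 2.31 (standard error, SE, 0.23, adjusted p = 0.00544, 4.95-fold). Col8a2, the partner chain, was at 5.28, 6.48 and 4.8 CPM and at 8.96, 13.3 and 6.65 CPM. Its groups did not overlap either, but a difference of 0.80 on the log2 scale had an adjusted p of 0.0825 in edgeR's test.

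Among the fibrillar genes, Col1a1 was at 982, 1102 and 1012 CPM in the floxed hearts and at 1267, 1653 and 1647 CPM in the cKO hearts, so that its log2 fold change was 0.56 (SE 0.12, adjusted p = 0.0248 by edgeR, and 0.155 in the fit of all 12 libraries). Its partner Col1a2 had 1182, 1398 and 1164 CPM against 1490.5, 1735 and 1621 CPM. Every cKO heart was above every floxed heart for both chains, yet Col1a2, with a log2 fold change of 0.37, missed the threshold (adjusted p = 0.0562 by edgeR). Col5a1, a chain of type V collagen, which starts fibrils and limits their width, was at 483, 537 and 519.7 CPM and at 624, 759 and 665 CPM (log2 fold change 0.41, adjusted p = 0.031 by edgeR). For its partner Col5a2 the log2 fold change was 0.44 with an adjusted p of 0.0705 by edgeR. Col3a1 had a log2 fold change of 0.22 (adjusted p = 0.325 by edgeR), its cKO hearts at 2814, 2481 and 3494 CPM overlapping the floxed hearts at 2382, 2810.2 and 2349.8 CPM. Thus 2 of 11 fibrillar genes were called, 8 of 11 had a positive log2 fold change and their median was 0.37.

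Of the 6 type IV genes, the pair Col4a1 and Col4a2 rose and the other 4 did not pass the test. Col4a1 was at 1689.9, 1819 and 1975 CPM in the floxed hearts and at 2521, 3275 and 3099 CPM in the cKO hearts (log2 fold change 0.70, SE 0.12, adjusted p = 0.0145 by edgeR). Col4a2 followed it closely, with 1088, 1119 and 1294 CPM against 1635, 2139 and 1955 CPM (log2 fold change 0.71, SE 0.12, adjusted p = 0.0145 by edgeR). The ratio of Col4a1 to Col4a2 was 1.53 ± 0.0504 (SD, n = 3, per kb) in floxed hearts and 1.51 ± 0.0278 in cKO hearts, a difference smaller than the spread between hearts. The chains of the specialised trimers had log2 fold changes of 0.11 (Col4a3, SE 0.22), 0.18 (Col4a4, 0.28), -0.05 (Col4a5, 0.08) and -0.35 (Col4a6, 0.22). In each of these 4 the groups overlapped. The median log2 fold change of the 6 genes was 0.14, and it changed sign to -0.07 without cKO replicate 5 and was 0.02 without floxed replicate 2.

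In the other types 5 genes rose, 1 fell and the median log2 fold change was 0.28. This median ranged from 0.12 (without cKO replicate 4) to 0.30 with single hearts left out, was 0.15 without floxed replicate 3 and was 0.14 with the Y-linked genes as a covariate. Col14a1, a FACIT that binds the surface of type I fibrils, was at 167, 197 and 198 CPM in the floxed hearts and at 280.0, 314 and 318 CPM in the cKO hearts, with little spread inside either group (log2 fold change 0.70, SE 0.09, adjusted p = 0.00792 by edgeR). The FACIT Col16a1 was at 52 ± 4.51 CPM (SD, n = 3) and at 79 ± 10.7 CPM, without overlap (log2 fold change 0.60, adjusted p = 0.0204 by edgeR). In the fit of all 12 libraries Col14a1 and Col16a1 missed the threshold (adjusted p = 0.0757 for each by edgeR). Col26a1, a low gene, had 9.22, 7.57 and 8.21 CPM against 12, 13.8 and 16.3 CPM (log2 fold change 0.75, adjusted p = 0.0197 by edgeR). In type VI, whose trimers hold an α1, an α2 and 1 further chain, Col6a3 rose with a log2 fold change of 0.68 (adjusted p = 0.03 by edgeR), while Col6a1 (0.27) and Col6a2 (0.29) did not pass the test. The level of Col6a3 relative to Col6a2 per kb was 0.3 ± 0.012 (SD, n = 3) in floxed hearts and 0.394 ± 0.0615 in cKO hearts, and the groups did not overlap. Col25a1, a transmembrane collagen needed for the innervation of developing skeletal muscle, was at 7, 7.28 and 5.35 CPM in the floxed hearts and at 3.9, 3.19 and 3.82 CPM in the cKO hearts (log2 fold change -0.85, SE 0.18, adjusted p = 0.0256 by edgeR). Another transmembrane gene, Col13a1, had a log2 fold change of -0.93 and an adjusted p of 0.0559 by edgeR.

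**Figure D2:**
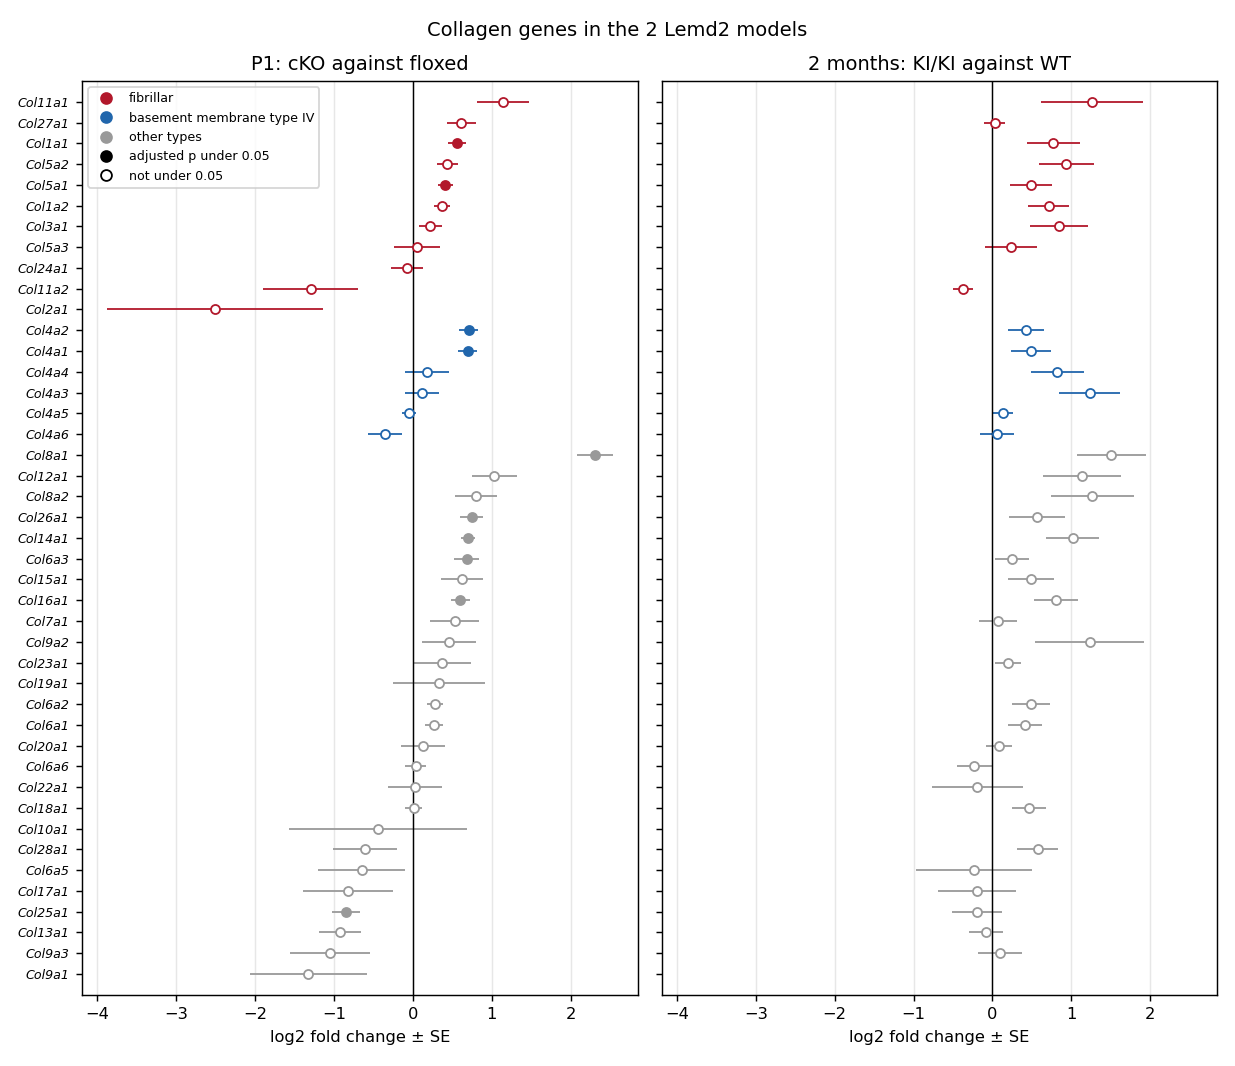
Log2 fold change with its standard error for the collagen genes of cKO against floxed hearts (left) and of KI/KI against WT hearts (right), 3 hearts per group, coloured by class and filled where the adjusted p was under 0.05. On the left 10 points are filled and Col8a1 stands farthest to the right, and on the right none is filled although 31 of 38 lie above 0.

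Over all 43 genes the median log2 fold change was 0.27 and 30 were positive, beside a median of -0.0046 and 7632 positive of the 15392 genes tested. In 16 of the 43 every cKO heart lay above every floxed heart, which held for 20.0% of all genes tested. Markers of cell types were read as well, beside 9.15% of all genes called higher and 7.23% called lower. The 8 activated fibroblast markers (among them Postn, Cthrc1 and Meox1) summed to 2244 to 2761 CPM in floxed hearts and 3228 to 4843 CPM in cKO hearts, with 5 of 8 called higher, whereas 1 of 10 cardiac fibroblast markers was called higher and their sum was 1378 to 1465 against 1369 to 1550.5 CPM. Of the 8 cardiomyocyte markers 4 were called lower (46975 to 54718 against 40871 to 44761 CPM), of the 8 macrophage markers 4 were called higher (107 to 119.9 against 132 to 254 CPM), of the 8 mural cell markers 4 were called higher (1095 to 1139.8 against 914 to 1275 CPM) and of the 8 endothelial markers 1 was (1202 to 1309 against 1385 to 1725 CPM). None of these markers was at 0 in every heart, and their part in the collagen differences was not tested. The counts of 1 of 10 cardiac fibroblast and 1 of 8 endothelial markers were near the share of all genes called higher. The count of 9 changed with single hearts left out: it was 1 without floxed replicate 1, 2 without floxed replicate 2 or cKO replicate 5, 4 without floxed replicate 3, 12 without cKO replicate 4 and 15 without cKO replicate 6. The fibrillar median log2 fold change ranged from 0.32 to 0.44 in these fits, and the type IV median from -0.07 to 0.26. Each fit had 2 hearts against 3, and the share of all genes called is not given. The changed counts therefore cannot be read as particular to collagen genes. Col8a1 was called with any heart left out, and Col14a1 in 5 of 6 cases.

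Cartilage collagens, meaning types II, IX, X and XI and grouped after their values were seen, varied widely among hearts of 1 group. Col2a1, the chain of cartilage fibrils, was at 58.6, 77.4 and 1.99 CPM in the floxed hearts and at 19.1, 3.42 and 1.38 CPM in the cKO hearts. Its 3 highest P1 hearts (floxed replicates 2 and 1 and cKO replicate 4) were also the 3 with the highest sum of lung epithelial markers, and the highest adult heart, WT replicate 3 at 0.927 CPM, had the highest sum of all. The adult heart with the next highest sum did not follow: KI/KI replicate 4 had 35.8 CPM of lung markers and 0.0892 CPM of Col2a1, at the floor of 3 counts. Col9a1 was at 21, 20.6 and 4.65 and at 8.58, 8.22 and 1.55 CPM, and Col11a2 at 13.7, 14.9 and 3.42 and at 7.05, 3.13 and 2.76 CPM. Col9a3 was at 5.95, 8.62 and 2.76 and at 3.48, 3.52 and 1.33 CPM. Col9a2 did not follow the order of Col2a1, with 17.6, 19.2 and 7.02 CPM in the floxed hearts and 20.0, 22.1 and 18.1 CPM in the cKO hearts, highest in cKO replicate 5. Nor did Col11a1, which also partners type V chains outside cartilage, with 51.4, 48.7 and 34 CPM in the floxed hearts and 107, 134 and 55.2 CPM in the cKO hearts, where its lowest cKO heart was above the highest floxed heart (log2 fold change 1.15, adjusted p = 0.0559 by edgeR). The 6 chondrocyte markers, such as Sox9 and Acan, summed to 49.8 to 60.6 CPM in floxed and 46.7 to 69.5 CPM in cKO hearts. None of the 7 cartilage genes was called in the cKO comparison by edgeR, where 1 had an unadjusted p under 0.05, and DESeq2 called 1, Col11a1 (adjusted p = 0.00194). With the lung markers as a covariate 9 collagen genes were called higher and 2 lower, and with the chondrocyte markers 16 and 2. The shares of all genes called in these 2 fits are not given.

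**Figure D3:**
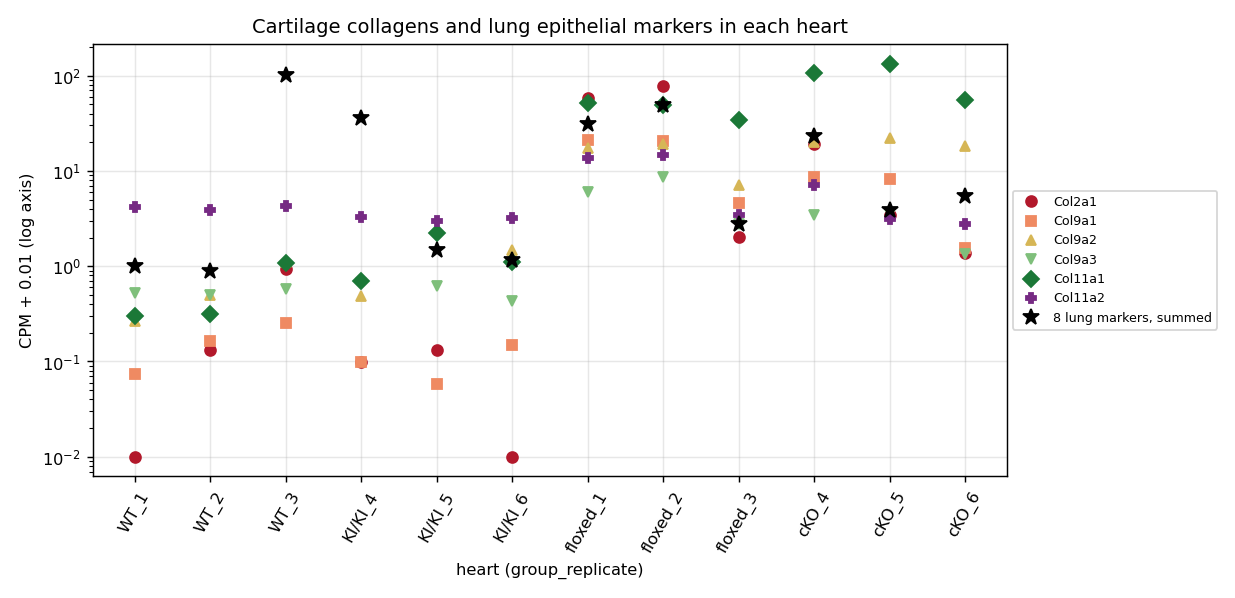
CPM (plus 0.01, log axis) of 6 cartilage collagen genes and the summed CPM of 8 lung epithelial markers (stars) in each of the 12 hearts. Col2a1 reaches 77.4 CPM in floxed replicate 2 and lies under 4 CPM in 3 of the P1 hearts, and the stars are high in the same P1 hearts as Col2a1.

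In the adult hearts the same genes were compared between KI/KI and WT. No collagen gene passed an adjusted p of 0.05 in edgeR's test, and neither did any of the 14670 genes tested (0.0%). At an unadjusted p under 0.05, 8 of the 38 collagen genes were higher (8.72% of all genes were) and 1 was lower (7.18%). DESeq2 called 2 higher, Col4a3 and Col14a1, where it called 2.13% of all genes higher. In 6 of the 38 every KI/KI heart lay above every WT heart, which held for 11.1% of all genes. The median log2 fold change was 0.71 over the 9 fibrillar genes tested, 0.46 over the 6 type IV genes and 0.41 over the 23 of other types, beside 0.0021 over all genes, and 31 of 38 were positive beside 7416 of 14670.

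KI/KI replicate 5 was the highest of its group for 30 of the 38 genes. Col8a1, again the gene with the smallest p, was at 45.5, 61.4 and 49.5 CPM in WT hearts and at 70.5, 251 and 120.2 CPM in KI/KI replicates 4, 5 and 6 (log2 fold change 1.51, SE 0.44, adjusted p = 0.241 by edgeR). The lowest KI/KI heart was above the highest WT heart, but replicate 5 held more than the other 2 together. Without it the log2 fold change was 0.88. Col4a3, a chain of the α3α4α5 trimer known from kidney and lung basement membranes, was at 15.7, 15.7 and 17 CPM and at 21.2, 63 and 28.7 CPM (log2 fold change 1.23, SE 0.39, adjusted p = 0.25 by edgeR), and its neighbour Col4a4 at 20.9, 21.5 and 26.8 CPM and at 26, 63.7 and 31.5 CPM. The pair was highest in KI/KI replicate 5, which had 1.47 CPM of lung epithelial markers. Among the WT hearts both genes were highest in replicate 3, which had 102 CPM of these markers. Among the KI/KI hearts both genes were lowest in replicate 4, which had 35.8 CPM of these markers. The part of lung RNA in these levels was not tested. The lowest KI/KI heart of Col4a4 fell among the WT hearts.

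Col14a1 was at 53.3, 38.5 and 63.9 CPM in WT hearts and at 67, 157 and 89.2 CPM in KI/KI hearts (log2 fold change 1.02, adjusted p = 0.262 by edgeR). For the FACIT Col16a1 the levels were 16.4, 21.2 and 21.4 CPM and 23.3, 49.7 and 29.4 CPM, and for Col1a2 they were 316, 299 and 347 CPM and 361, 751 and 458 CPM. In all 3 genes the groups did not overlap, by a small gap at KI/KI replicate 4. Col11a2 was the one gene with an unadjusted p under 0.05 in the other direction, at 4.14, 3.91 and 4.28 CPM in WT hearts and 3.27, 2.99 and 3.2 CPM in KI/KI hearts (log2 fold change -0.38, adjusted p = 0.266 by edgeR). For the abundant genes Col3a1, Col1a1, Col4a1 and Col4a2 the log2 fold changes were 0.84, 0.77, 0.49 and 0.43, with standard errors of 0.37, 0.34, 0.26 and 0.23, and their groups overlapped. Without replicate 5 the class medians fell to 0.28 (fibrillar), 0.14 (type IV) and 0.15 (other types), with 29 of 38 genes still positive and 6 higher at an unadjusted p under 0.05. Without replicate 4, the KI/KI heart nearest to WT, 22 collagen genes were higher at that p. Again none passed the adjusted threshold, which 52 genes of the whole table then passed. For the fits without replicate 5 or replicate 4, the share of all genes at that unadjusted p is not given. The counts of 6 and 22 therefore cannot be set against the whole table, and their difference cannot be read as particular to collagen genes. The activated fibroblast markers were at 251, 233 and 259.9 CPM in WT hearts and 273, 912 and 393 CPM in KI/KI replicates 4, 5 and 6, highest in the heart with the highest collagen, and the cardiomyocyte markers summed to 85138, 65675 and 78664 CPM in the same hearts against 83418 to 96121 CPM in WT hearts. The 8 macrophage markers summed to 220.2 to 309 CPM in WT hearts and 329.5 to 366 CPM in KI/KI hearts. The part of these cells in the result was not tested.

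Whether the collagen genes responded differently in the 2 models was tested as the difference of the 2 log2 fold changes, KI/KI against WT minus cKO against floxed, in a fit of all 12 libraries. None of 43 collagen genes had an adjusted p under 0.05, while 2.47% of all genes did. For Col8a1 the difference was -0.81 (SE 0.53, adjusted p = 0.421 by edgeR). At an unadjusted p under 0.05 edgeR's test gave 4 of the 43 genes: Col4a3 (1.11, SE 0.47), Col13a1 (0.84, 0.35) and Col28a1 (1.17, 0.52), with the more positive fold change in KI/KI hearts, and Col27a1 (-0.59, 0.24) with the more positive one in cKO hearts. Of all 15842 genes, 1587 were higher and 1600 lower at that p, a larger share than among the collagen genes. DESeq2 called none of the 43 collagen genes. Age, the kind of allele and the cells that carry it differ between the models together and cannot be told apart.

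The widest differences lay between the adult WT and the P1 floxed hearts, a comparison in which age and the floxed allele cannot be told apart. Of the 43 collagen genes tested, 33 were lower in adult hearts at an adjusted p under 0.05 by edgeR, 27 of them past 2-fold, and 7 were higher, 6 of them past 2-fold. Of all 15267 genes, 33.2% were called lower (13.9% past 2-fold) and 31.3% higher (13.3% past 2-fold). The median log2 fold change was -1.41 over the collagen genes and -0.045 over all genes. Leaving out the cartilage types, 27 of 36 were lower and 7 higher. Cell type markers differed as well, with 7 of 8 cardiomyocyte markers called higher in the adult (83418 to 96121 against 46975 to 54718 CPM), 7 of 8 macrophage markers called higher, and 4 of 8 activated fibroblast markers called lower and 2 higher (233 to 259.9 against 2244 to 2761 CPM). Of 10 cardiac fibroblast markers, 4 were called higher and 2 lower (2850.0 to 3271 against 1378 to 1465 CPM). Gsn made up most of the adult sum, with means of 1962 CPM in WT and 252 CPM in floxed hearts. Lamc1, the next highest in the adult, was lower there (493 against 830 CPM). The part of these cell types in the collagen differences was not tested.

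Fibrillar genes were lower as a class, 10 of 11 called and all 10 past 2-fold, with a median log2 fold change of -2.19. The 10 include the cartilage genes Col2a1, Col11a1 and Col11a2, the last with overlapping groups (adjusted p = 0.0497 by edgeR). Leaving the cartilage types out, 7 of 8 were called lower, all 7 past 2-fold, and the median was -2.11. Col1a1 was at 233, 199 and 247 CPM in WT hearts against 982, 1102 and 1012 CPM in the floxed hearts (4.57-fold lower, log2 fold change -2.19, SE 0.11, adjusted p = 2.16e-06 by edgeR). Col1a2 was lower by a like amount, at 316, 299 and 347 CPM against 1182, 1398 and 1164 CPM (log2 fold change -1.96, SE 0.10). Col3a1 was at 609, 432 and 619 CPM in WT hearts and 2382, 2810.2 and 2349.8 CPM in floxed hearts (log2 fold change -2.19, SE 0.16). These 3 chains of the main heart fibrils thus differed by nearly the same factor. In type V, Col5a1 (136, 116 and 123 CPM against 483, 537 and 519.7 CPM) and Col5a2 (77.1, 67 and 77.1 CPM against 399, 439 and 389 CPM) were lower in adult hearts, with log2 fold changes of -2.04 and -2.48. Their relative Col5a3 was the only fibrillar gene called higher, at 48.1, 30.6 and 47.7 CPM in WT hearts and 19.9, 19.3 and 18.6 CPM in floxed hearts (log2 fold change 1.13, SE 0.17, adjusted p = 0.000728 by edgeR). Col24a1, known from developing bone and cornea, was near the floor in the adult, at 0.128, 0.244 and 0.191 CPM, and at 13.9, 18.5 and 14.7 CPM at P1 (log2 fold change -6.36, SE 0.23).

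Type IV genes divided by their chromosomal pairs. Col4a1, at 998, 829 and 954 CPM in WT hearts and 1689.9, 1819 and 1975 CPM in floxed hearts, and Col4a2, at 741, 643 and 707 CPM and 1088, 1119 and 1294 CPM, were lower in the adult with log2 fold changes of -0.98 (SE 0.10) and -0.75 (0.10). The X-linked pair was also lower, with log2 fold changes of -0.94 (SE 0.07) for Col4a5 and -1.23 (0.10) for Col4a6. The pair around the 71-base interval went the other way. Col4a3 was at 15.7, 15.7 and 17 CPM in WT hearts and 4.73, 3.29 and 3.88 CPM in floxed hearts (log2 fold change 2.02, SE 0.15, adjusted p = 1.33e-05 by edgeR). Col4a4 was at 20.9, 21.5 and 26.8 CPM and 4.57, 3.93 and 6.13 CPM (log2 fold change 2.23, SE 0.19, adjusted p = 3.05e-05 by edgeR). Per kb, Col4a3 stood at 0.0135 ± 0.00127 of Col4a1 (SD, n = 3) in WT hearts and at 0.0017 ± 0.000412 in floxed hearts, so that it was a small part of type IV collagen RNA at either age.

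Among the other types 19 of 26 were lower and 4 were higher. The multiplexin Col18a1, whose C-terminal fragment is endostatin, had the smallest p of all collagen genes, at 26.5, 26.4 and 29.1 CPM in WT hearts and 163, 175 and 164 CPM in floxed hearts (log2 fold change -2.62, SE 0.07, adjusted p = 3.82e-07 by edgeR). Its paralog Col15a1 differed in the other direction, at 233, 217 and 244 CPM against 162, 143 and 188 CPM (log2 fold change 0.48, SE 0.11, adjusted p = 0.00557 by edgeR). Col12a1, a FACIT of developing and loaded connective tissue, was at 5.94, 5.92 and 7.47 CPM in the adult and 69.6, 74.8 and 76.6 CPM at P1 (11.4-fold lower). The type VI genes Col6a1, Col6a2 and Col6a3 were lower by less, with log2 fold changes of -0.74, -0.92 and -0.90. Col8a1 was called higher in the adult, at 45.5, 61.4 and 49.5 CPM in WT hearts and 11.1, 10.3 and 11.2 CPM in floxed hearts (log2 fold change 2.26, SE 0.12, adjusted p = 3.88e-06 by edgeR). Its P1 level in cKO hearts, 53.7 ± 17.9 CPM (SD, n = 3), lay beside its adult WT level, 52.2 ± 8.28 CPM. Col20a1 and Col22a1 were also called higher, at under 7 CPM in every heart, and Col6a5, Col10a1 and Col28a1 were not called.

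**Figure D4:**
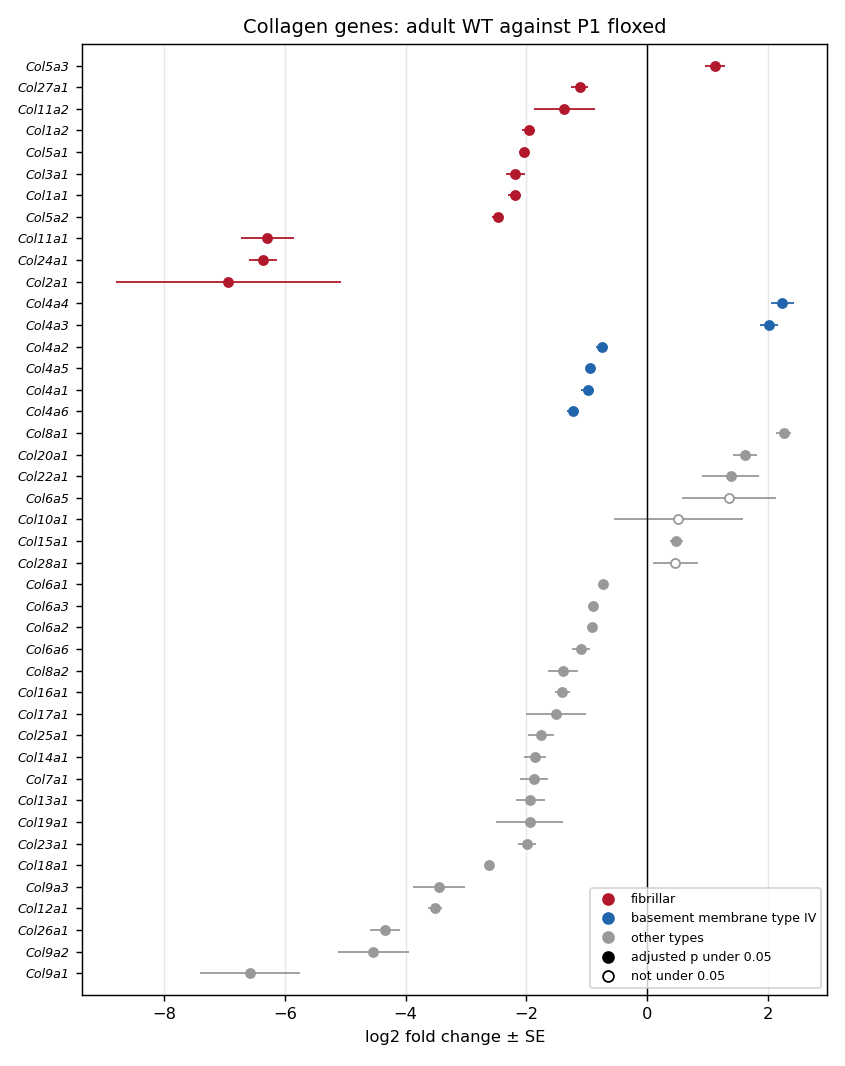
Log2 fold change with its standard error for the 43 collagen genes tested between 3 adult WT and 3 P1 floxed hearts, coloured by class and filled where the adjusted p was under 0.05. Only 1 fibrillar point (Col5a3) lies to the right of 0, the type IV pair Col4a3 and Col4a4 lies near 2, and Col8a1 is the farthest right of all.

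The make-up of collagen RNA was read from the summed CPM per kb, which compares chains by transcript number rather than length. Fibrillar genes held 33.7 ± 1.63% of it (SD, n = 3) in WT hearts, 37.4 ± 2.79% in KI/KI hearts, 55 ± 2.66% in floxed hearts and 51.4 ± 2.44% in cKO hearts. Type IV genes held 39.6 ± 1.07%, 36.4 ± 1.99%, 27.2 ± 2.35% and 31.4 ± 1.8% in the same order of groups. Fibrillar RNA was therefore the larger class at P1 and type IV RNA the larger in the WT adult. The ratio of fibrillar to type IV RNA was 0.846, 0.795 and 0.917 in the WT hearts, 0.948, 1.18 and 0.965 in the KI/KI hearts, 2.07, 2.28 and 1.75 in the floxed hearts and 1.77, 1.45 and 1.71 in the cKO hearts. Every KI/KI heart had a higher ratio than every WT heart, while floxed and cKO hearts overlapped. With 3 hearts against 3, an exact permutation test cannot give a two-sided p under 0.10, and none was run. Type I trimers hold 2 α1 chains and 1 α2 chain, and the ratio of Col1a1 to Col1a2 per kb was 0.637 ± 0.0324 in WT, 0.644 ± 0.0744 in KI/KI, 0.748 ± 0.0364 in floxed and 0.848 ± 0.0756 in cKO hearts.

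**Figure D5:**
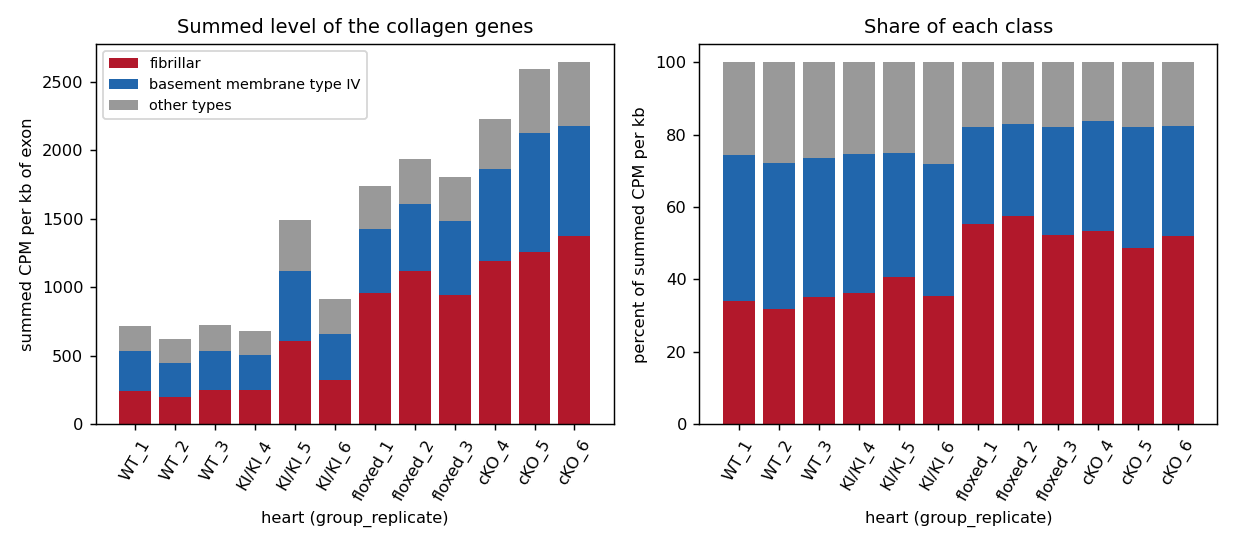
Summed CPM per kb of exon of the 44 collagen genes in each heart (left, bars from 0) and the percent of it in each class (right), by heart. The P1 hearts sum to between 1739 and 2645 CPM per kb and the WT hearts to between 621.0 and 723.4, and the lowest fibrillar share (red) of a P1 heart is 48.7% and the highest of an adult heart 40.6%.

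The enzymes that make and finish collagen were read from lists of pathway genes. Of 19 genes for folding and modification in the endoplasmic reticulum, 12 were called higher and none lower in cKO hearts by edgeR, where 9.15% of all genes were called higher. P4ha1, the catalytic subunit of prolyl 4-hydroxylase, rose with a log2 fold change of 1.04 (SE 0.10, adjusted p = 0.0056). The prolyl 3-hydroxylase Leprel1 (1.58), the lysyl hydroxylase Plod2 (1.16) and the collagen chaperone Serpinh1 (0.74) rose as well. In the age comparison 5 of the 19 were called higher in the adult and 8 lower, shares near those of all genes (31.3% higher and 33.2% lower). P4ha3 (-6.04) and the prolyl isomerase Fkbp10 (-1.84) were lower in the adult, and P4ha2 (1.66) and the galactosyltransferase Colgalt2 (1.38) were higher. No gene of the list passed in KI/KI hearts. There, 5 were higher and 1 lower at an unadjusted p under 0.05, beside 8.72% and 7.18% of all genes. In the test of the difference between models 1 was called, lower in KI/KI relative to cKO, beside 2.47% of all genes called. At an unadjusted p under 0.05, 11 of the 19 were lower and 0 higher in that test, with a median of -0.46. Of all 15842 genes 1600 were lower at that p.

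Of 14 genes for procollagen processing and cross-linking, 8 were called higher in cKO hearts and none lower (9.15% of all genes were called higher). Among them were Pcolce, which enhances removal of the C-propeptide (0.87), the cross-linking transglutaminase Tgm2 (1.30), the lysyl oxidase relative Loxl4 (1.09) and the procollagen N-proteinase Adamts14 (0.68). In the adult 6 were lower (33.2% of all genes), such as Lox (-3.87), Loxl2 (-2.10) and the C-proteinase Bmp1 (-0.84). The 2 that were higher (31.3% of all genes) included Pcolce2 (3.03). Of 9 collagen receptors tested, 3 were called higher in cKO hearts, beside 9.15% of all genes. They were the integrin chains Itga1 (1.41) and Itgb1 (0.63) and the uptake receptor Mrc2 (0.87). With age 4 receptors were called lower and 4 higher, beside 33.2% and 31.3% of all genes, with the discoidin receptors Ddr1 (-1.47) and Ddr2 (0.73) in opposite directions. Of 9 fibril-associated proteoglycans and related proteins, 3 were called higher in cKO hearts, beside 9.15% of all genes: Ogn (1.00), Bgn (1.04) and Aspn (0.66). In the age comparison 5 of these 9 were higher in the adult (31.3% of all genes), with Dcn at 1.45, Prelp at 1.92 and Tnxb at 1.23, and 2 were lower, Aspn among them. The values given for these genes are log2 fold changes. In KI/KI hearts no gene of the 3 lists passed edgeR's adjusted threshold. At an unadjusted p under 0.05 there were 4 processing genes, 4 receptors and 3 proteoglycans higher and none lower. Of all genes 8.72% were higher and 7.18% lower at that p. Between the models 1 processing gene and 1 proteoglycan were called, both with a lower log2 fold change in KI/KI hearts than in cKO hearts, and no receptor. That test called 2.47% of all genes.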

How the data were processed

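RNA-Seq of whole hearts was analysed for 12 mice, 3 in each of 4 groups taken from the sample labels, sequenced as polyA-selected single-end libraries. The authors used Trim Galore for trimming, STAR 2.7.2b for alignment to mm10, SAMtools 1.9 for sorting and HTSeq for counting, and deposited raw counts per gene symbol, not normalized. The count table pairs each symbol with 1 value per mouse. Replicates were not pooled, and no 2 replicates held identical counts. The library totals of 37063669 to 44789753 counts put genes with few counts near the floor of 3 counts per library.

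Counts were tested in R 4.3.3 with edgeR 4.0.16 (TMM normalization, robust quasi-likelihood test, Benjamini-Hochberg adjustment over all genes tested). Each comparison used its own 6 libraries and the genes with at least 10 counts in 3 of them, and the difference between models used all 12. Each standard error was the log2 fold change divided by the root of the F statistic. CPM values were normalized by TMM over all 12 libraries, and CPM per kb used the exon length of the principal GENCODE transcript on GRCm38. A gene was called at an adjusted p under 0.05, and the count past 2-fold was given beside it. Scripts were tested on simulated counts. Alternatives were DESeq2 1.42.0, limma-voom (limma 3.58.1), RLE size factors, the filterByExpr filter, no filter, all 12 libraries in one fit, types XV and XVIII counted with basement membrane, a Y-linked covariate, a replicate block and each library left out. Marker covariates and counts without cartilage types were added after seeing the data.

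The collagen genes, their classes, the pathway lists and the cell type lists were chosen with earlier results of these data known. Members named were, per comparison, up to 8 called genes by smallest adjusted p (or the 6 with the smallest p where fewer than 4 were called), the 3 highest per class by CPM per kb and those within 50 kb of another member; per list, up to 4 genes with the smallest adjusted p. Other members, named to complete a pair or a count, were chosen after their values were seen. Markers of skeletal muscle, Schwann cells, the epicardium and adipocytes were also read. In the cKO comparison 1 of 6 skeletal muscle markers tested was called higher, 2 of 6 Schwann cell markers were called lower, none of 6 epicardial markers was called, and no adipocyte marker passed the filter. Of all genes, 9.15% were called higher there and 7.23% lower. The study's other experiments were not used here.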

Additional observations from a re-analysis of the deposited data

How the results depend on the processing

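The class medians kept their sign under the alternatives run, except that of type IV in cKO against floxed, and the counts of called genes changed as follows. In KI/KI against WT, DESeq2 called 2 collagen genes higher where edgeR called 0, and limma-voom, RLE size factors, both other filters and the fit of all 12 libraries called 0. In cKO against floxed, DESeq2 called 15 higher and 2 lower, where it called 2095 higher and 1686 lower of all 15392 genes (edgeR 1409 and 1113). The fit of all 12 libraries called 2 lower, and the lung epithelial marker covariate also gave 2 lower. With the chondrocyte marker covariate 16 were higher and 2 lower, beside 9 and 1 in the main test. For the other fits of this comparison, also with a library left out, the share of all genes called is not given. With each library left out, the called collagen genes ranged from 0 to 0 higher and 0 to 0 lower in KI/KI against WT, from 1 to 15 higher and 0 to 2 lower in cKO against floxed, from 6 to 7 higher and 30 to 33 lower in adult WT against P1 floxed, and from 0 to 0 higher and 0 to 1 lower in the difference between models, where Col27a1 was called (-0.77) without cKO replicate 6. The class medians of KI/KI against WT then ranged from 0.28 to 0.92 (fibrillar), 0.14 to 0.66 (type IV) and 0.15 to 0.61 (other types), the lowest without KI/KI replicate 5, and the type IV median of cKO against floxed from -0.07 (without cKO replicate 5) to 0.26, and that of the other types in adult WT against P1 floxed from -1.64 to -1.29. Of the genes followed singly, Col4a3 turned to -0.0072 without floxed replicate 2 and to -0.062 without cKO replicate 5, and Col4a4 (range -0.13 to 0.37) to -0.13 without cKO replicate 5, all in cKO against floxed, where neither was called. In the fit of all 12 libraries Col14a1, Col16a1 and Col1a1 missed the threshold in that comparison (adjusted p = 0.0757, 0.0757 and 0.155). The cause of these changes was not tested. WT and floxed hearts share replicate numbers 1 to 3, and KI/KI and cKO hearts 4 to 6. Deviations of same-numbered hearts from their group means had correlations of -0.51 to -0.21 and 0.08 to 0.20, and the main tests did not pair them. With 3 hearts per group, these correlations cannot show whether same-numbered hearts shared a batch. With the replicate block, 30 collagen genes were lower and 7 higher in the adult, and 0 differed between models. The share of all genes called is not given for the block fits. Nor is it given for the left-out fits of the age comparison and of the difference between models. Genes near the floor, such as Col6a4 and Col10a1, are limited by depth.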
